A study of Homo sapiens with 12 samples.

Results

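The 9 genes described here encode enzymes that activate, break down or respond to fluorouracil. They were listed by the known roles of their products and found by symbol: TYMS, TK1, UMPS, DPYD, UPP1, UCK2, DUT, RRM1 and RRM2, 9 of the 60107 gene identifiers in the count table. Each symbol matched 1 Ensembl identifier. RNA was measured by 3′ RNA-sequencing (QuantSeq FWD), which reads the 3′ end of each polyadenylated transcript, in cells of 2 lines labelled U251P and U251T. U251 is an established human glioblastoma line; what the letters P and T stand for is not given in the sources used here. The study asked which transcripts change with carmofur, an inhibitor of acid ceramidase, in relation to cell migration.

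There were 4 groups of 3 libraries: U251P with vehicle (DMSO), U251P with carmofur, U251T with vehicle and U251T with carmofur. All cells were starved of serum for 16 h and then kept for 24 h in full medium with DMSO or carmofur. The study's description of the experiment gives 5 µM carmofur and places it in the starvation period as well, whereas the labels name it only for the last 24 h. The labels do not say whether the libraries of a group came from separate cultures. The study's methods state biological replication for its experiments in general without naming these libraries, so p-values measure the spread between these libraries, part of which may be technical. Total counts were 3295045 to 5263645 in U251P vehicle, 4144841 to 6350873 in U251P carmofur, 566061 to 2817379 in U251T vehicle and 383633 to 1078340 in U251T carmofur. Values below are counts per 1000000 of each library's total (CPM). A transcript gives about 1 read at its 3′ end whatever its length, so CPM needs no correction for length between genes. Whether the genes were captured and mapped equally well was not checked, so orders between genes are approximate. Exact counting intervals and floors given below cover counting error only, while the 95% intervals of log2 fold changes come from edgeR's fit and include the spread between libraries.

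Carmofur is a fluorouracil carried on a side chain, and cells can release fluorouracil from it. Fluorouracil is turned into nucleotides by orotate phosphoribosyltransferase (UMPS), or by uridine phosphorylase (UPP1) followed by uridine kinase (UCK2), and most of it is degraded by dihydropyrimidine dehydrogenase (DPYD). Its deoxynucleotide blocks thymidylate synthase (TYMS), the enzyme that makes dTMP from dUMP; dUTPase (DUT) keeps uracil out of DNA, thymidine kinase (TK1) salvages thymidine, and ribonucleotide reductase (RRM1 and RRM2) makes the deoxynucleotides.

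The libraries labelled U251T stood apart from the U251P libraries before any treatment was considered. Annotated pseudogenes held 10.8% to 12.4% of their counts, against 0.272% to 0.307% in U251P, and the mitochondrial ribosomal RNA MT-RNR2 held 0.332% to 0.578%, against 8.99% to 11.6%. Genes that every human cell uses were also low: B2M averaged 2.73 CPM ± 2.32 (SD, n = 3) in U251T vehicle and 1676 CPM ± 81 in U251P vehicle, and GAPDH averaged 175 CPM ± 37.8 and 3365 CPM ± 367. The summed level of the 14 genes on that list was 2866 to 3306 CPM in U251T vehicle and 10589 to 11708 CPM in U251P vehicle.

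Of 12 glioma and astrocyte markers, 8 reached a mean of 1 CPM in each U251P group, 6 in U251T vehicle and 7 in U251T carmofur. VIM was the most abundant of them in all 4 groups. Their summed level was 4710, 5165 and 4146 CPM in U251P vehicle, 4764, 4636 and 4575 CPM in U251P carmofur, 14185, 11716 and 14105 CPM in U251T vehicle and 9893, 7836 and 8610 CPM in U251T carmofur. NES, an intermediate filament gene of neural progenitors, had 5467 counts in U251P vehicle and 3 in U251T vehicle, and the neural stem cell factor SOX2 had 1771 and 0. GFAP, an astrocyte filament gene, went the other way, with 1 count in U251P vehicle and 303 in U251T vehicle; OLIG2 and AQP4 were at 0 in all 4 groups.

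The 7 fibroblast markers summed to 19.9, 19.1 and 20.5 CPM in U251P vehicle and 1987, 2133 and 2298 CPM in U251T vehicle, and to 23.5, 19.7 and 20.7 CPM and 2655, 2828 and 2620 CPM with carmofur. COL1A1, a collagen gene, was their most abundant gene in U251T, at 1440 CPM ± 145 (SD, n = 3; 1439.6 before rounding) in vehicle, and COL1A2 was in U251P; LUM was at 0 in all 4 groups and COL3A1 in both U251P groups. The 6 endothelial markers summed to at most 1.85 CPM, the 8 immune markers to at most 3.7 CPM in U251P and 21.2 CPM in U251T (CD68 leading, with CD3E, AIF1 and ITGAM at 0 throughout), and the 5 oligodendrocyte markers to at most 4.88 CPM. The 7 neuron markers summed to 77.6 to 91.7 CPM in U251P, 26.9, 3.55 and 17.7 CPM in U251T vehicle and 49.5, 22.3 and 54.7 CPM in U251T carmofur, led by MAP2, and the 6 epithelial markers to 279.7 to 355 CPM and 7.42 to 19.2 CPM. Within U251T the glioma sums were lower and the fibroblast sums higher in every carmofur library than in any vehicle library, and the neuron sums overlapped. Most of each sum was 1 gene: VIM averaged 12656 CPM in vehicle and 7943 CPM with carmofur, and COL1A1 1440 and 1906 CPM. Means of GFAP and TNC were also lower with carmofur, while that of CD44 (587 and 774 CPM) was higher. Those of EGFR, SLC1A3, NES and SOX2 were higher too, but rest on few counts. In vehicle and with carmofur these were 11 and 15, 15 and 22, 3 and 3, and 0 and 2 over the group. COL3A1, DCN and FAP were also higher, while COL1A2 (444 and 401 CPM) and PDGFRB were lower. The part these differences play in the results was not tested, and in any comparison of the lines they cannot be told apart from a difference in a single gene.

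TYMS (ENSG00000176890, chr18:657604-673578 on GRCh38, forward strand), the main target of the drug's active form, was plentiful in U251P, at 289.9, 307 and 229 CPM in vehicle and 325, 273 and 245 CPM with carmofur. In U251T it had 9, 7 and 3 counts in vehicle and 5, 3 and 3 counts with carmofur, or 6.92, 2.48 and 5.3 CPM and 5.16, 2.78 and 7.82 CPM. Vehicle and carmofur overlapped in both lines, and every U251T library was far below every U251P library.

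DUT (ENSG00000128951, chr15:48331011-48343373, forward strand) was the most abundant member in U251P, at 784, 761 and 589.7 CPM in vehicle and 694, 648 and 642 CPM with carmofur. In U251T its level was 211, 246 and 242 CPM in vehicle and 96.9, 86.2 and 70.4 CPM with carmofur. The 3 U251T carmofur libraries lay below the 3 vehicle libraries, while the U251P groups overlapped.

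RRM1 (ENSG00000167325, chr11:4094707-4138876, forward strand), the large subunit of the reductase, was at 316, 327 and 285 CPM in U251P vehicle and 356, 273 and 296 CPM in U251P carmofur. In U251T it was at 398, 448 and 496 CPM in vehicle and 214, 201 and 232 CPM with carmofur. RRM1 was the most abundant member in U251T, and there its vehicle libraries lay above all libraries of the other 3 groups.

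RRM2 (ENSG00000171848, chr2:10120698-10131419, forward strand), the small subunit that is made in S phase, was at 286, 255 and 230.1 CPM in U251P vehicle and 257, 234 and 230.4 CPM in U251P carmofur. In U251T it was at 42.3, 46.9 and 47.7 CPM in vehicle and 17.5, 22.3 and 33.9 CPM with carmofur, from 55, 132 and 27 counts and 17, 24 and 13 counts. The subunits stood in different proportion in the lines: the ratio of RRM1 to RRM2 was 1.21 ± 0.093 (SD, n = 3) in U251P vehicle and 9.79 ± 0.536 in U251T vehicle.

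Among the enzymes of activation, UMPS (ENSG00000114491, chr3:124730366-124749273, forward strand) was at 49.2, 50.4 and 43.5 CPM in U251P vehicle and 62.7, 49.6 and 47 CPM with carmofur, and at 60.7, 75.2 and 51.2 CPM and 61.9, 37.1 and 33.9 CPM in U251T. UCK2 (ENSG00000143179, chr1:165827531-165911618, forward strand) ranged from 40.5 to 53.1 CPM over both U251P groups and from 12.4 to 38 CPM over both U251T groups. UPP1 (ENSG00000183696, chr7:48088628-48108733, forward strand) was at 62.2, 94.7 and 64.2 CPM in U251P vehicle and 50.5, 41 and 60.1 CPM with carmofur. Its U251P groups did not overlap, the highest carmofur library (60.1 CPM) lying just under the lowest vehicle library (62.2 CPM). In U251T, UPP1 ranged from 9.23 to 15.6 CPM in vehicle and from 10.3 to 26 CPM with carmofur, on 5 to 44 counts.

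TK1 (ENSG00000167900, chr17:78174075-78187233, reverse strand) and DPYD (ENSG00000188641, chr1:97077743-97995000, reverse strand) were nearly missing from the U251T libraries. TK1 ranged from 95.9 to 139 CPM over the U251P libraries and had 1, 6 and 0 counts in U251T vehicle and 1, 1 and 0 with carmofur. DPYD ranged from 26.9 to 38.4 CPM in U251P and had 1, 2 and 0 counts in U251T vehicle and 0 in each of the 3 U251T carmofur libraries. A count of 0 over those 3 libraries allows up to 1.23 CPM (3 counts of their total).

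In U251P vehicle the order of mean levels was DUT, RRM1, TYMS, RRM2, TK1, UPP1, UCK2, UMPS and DPYD. RRM1, TYMS and RRM2 overlapped step by step, as did UCK2 and UMPS, and at the other steps the libraries of neighbouring genes did not overlap. In U251T vehicle the order was RRM1, DUT, UMPS, RRM2, UCK2, UPP1, TYMS, TK1 and DPYD, and only TK1 and DPYD overlapped. With carmofur the U251P order differed in placing UMPS before UPP1 and UCK2, which all overlapped, and RRM1, TYMS and RRM2 again overlapped their neighbours. In U251T the order with carmofur was the same as in vehicle. There UMPS, RRM2, UCK2 and UPP1 overlapped step by step, and TK1 and DPYD overlapped as in vehicle.

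**Figure D1:**
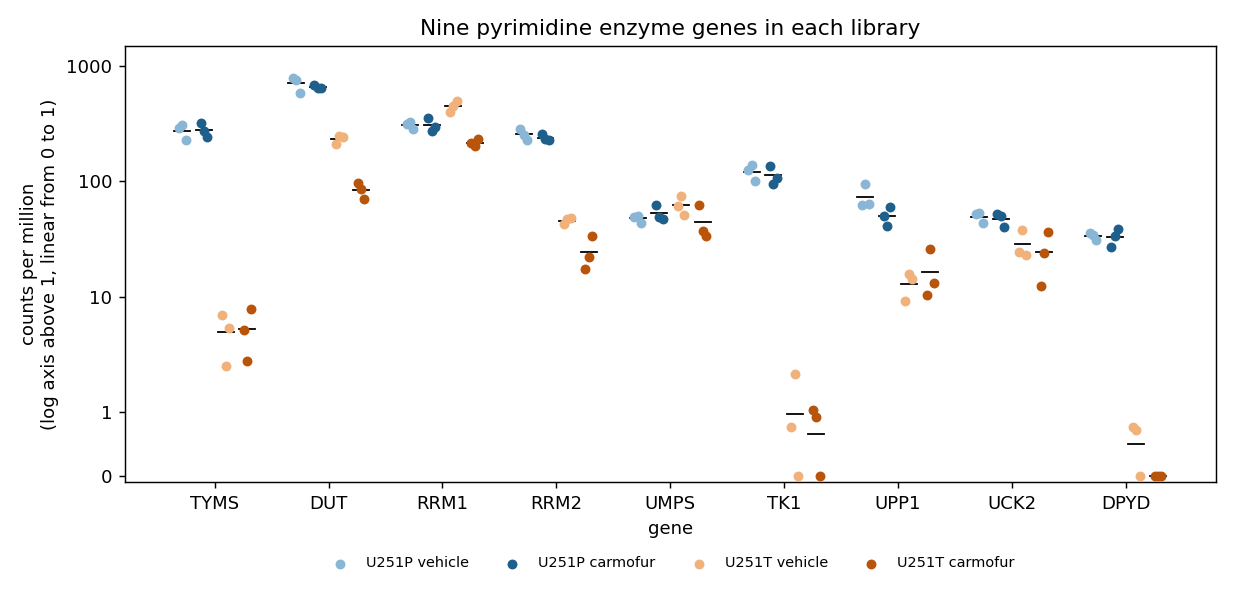
CPM of the 9 genes in each of the 12 libraries (points) with the group mean (black line), on an axis that is logarithmic above 1 and linear from 0 to 1. TYMS, TK1 and DPYD stay below 8 CPM in every U251T library, and DUT, RRM1 and RRM2 are lower with carmofur than with vehicle in U251T.

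Some members share sequence or position with other genes, and although the FWD kit marks strand, the sources used here do not say if the counting used it. Of 30 copies, antisense and overlapping genes, 10 had at least 10 counts over the 12 libraries. DUT has intronless copies: DUTP1, DUTP5 and DUTP7 had no count in U251P and averaged 34.2, 20.3 and 9.28 CPM in U251T vehicle, and 8.86, 7.33 and 5.2 CPM with carmofur. DUTP8 had 14 counts, all in U251T vehicle, and DUTP6 had 11 counts in U251P and 1 in U251T. Reads of DUT and of its copies may be exchanged, so the DUT level in U251T is uncertain. The copies made up 18.9% to 25.9% of the sum in U251T vehicle and 15.6% to 23% with carmofur. As the counter is not given, this share need not bound the uncertainty. Summed with 8 copies, DUT was at 284, 316 and 299 CPM in U251T vehicle and 126, 109 and 83.4 CPM with carmofur, so the groups did not overlap with the copies included.

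TYMSOS starts beside TYMS on the other strand and had 65 to 135 counts in each U251P library and 1 count in all 6 U251T libraries. ENOSF1, which overlaps the 3′ end of TYMS on the other strand, had 0 to 3 counts per library in U251P and 0 to 10 in U251T. If the counting did not use strand, the few TYMS counts in U251T could not be told apart from reads of ENOSF1. DUT-AS1 had 59 counts in U251P and 0 in U251T. SEC63P1, a pseudogene inside DPYD on the other strand, averaged 78.5 CPM in U251T vehicle, where DPYD itself was near 0, and 0.911 CPM in U251P vehicle. TMCO1, which overlaps the start of UCK2, averaged 123, 136, 177 and 248 CPM in U251P vehicle, U251P carmofur, U251T vehicle and U251T carmofur.

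The first question was whether carmofur changed these transcripts in U251P. None of the 9 was called: across 11426 genes, edgeR (quasi-likelihood, adjusted after Benjamini and Hochberg) called 0 genes (0%) at 0.05, with 402 genes under an unadjusted p of 0.05. DESeq2, over 24349 genes, also called 0, with 235 under that unadjusted p. UPP1 had the largest estimate of the 9, a log2 fold change of -0.51 with carmofur (SE 0.166, 95% interval -0.86 to -0.16; adjusted p = 0.999 by edgeR), lower in 3 of 3 libraries than in any vehicle library. UPP1 was the only member whose groups did not overlap, and 5.5% of tested genes had all carmofur libraries below all vehicle libraries. For the other 8 members the log2 fold change lay between -0.08 (TK1) and 0.19 (UMPS).

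The intervals bound what a change could have been in U251P. For TYMS the log2 fold change was 0.06 (SE 0.117, 95% interval -0.19 to 0.31), for DUT -0.08 (-0.3 to 0.14), for RRM1 0.02 (-0.2 to 0.24) and for RRM2 -0.07 (-0.28 to 0.14). The median over the 9 members was -0.02 and over all genes tested -0.00075. UMPS, DUT and UPP1 kept their sign under all 15 alternatives, while that of each of the other 6 turned under at least 1.

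No gene of the 10 lists passed the test in U251P, and the medians of the lists lay between -0.05 and 0.13. The most abundant tested genes of each list had these mean levels in vehicle and with carmofur: among synthesis genes NME1, a nucleoside diphosphate kinase, 163 and 159 CPM, and CMPK1, a UMP and CMP kinase, 131 and 124 CPM; in salvage and catabolism NT5C3A 70.7 and 78.7 CPM and DCTPP1 59.4 and 57.2 CPM. Among reductase partners TXNRD1 was at 582 and 486 CPM and TXN at 304 and 342 CPM. In the folate cycle, which feeds TYMS with methyl groups, MTHFD2 was at 312 and 222 CPM and SHMT2 at 147 and 121 CPM.

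In uracil repair PARP1 was at 223 and 216 CPM and APEX1 at 175 and 172 CPM, among transporters ABCC3 was at 66 and 79.5 CPM and SLC29A1 at 41.5 and 45.3 CPM, and among enzymes of RNA modification DKC1 was at 569 and 532 CPM and NOP10 at 219 and 229 CPM. The proliferation genes TOP2A (2053 and 1893 CPM) and MKI67 (1751 and 1771 CPM), the p53 targets GDF15 (104 and 60.4 CPM) and MDM2 (73.3 and 70.6 CPM), and GAPDH (3365 and 3149 CPM) and TUBA1B (1804 and 1822 CPM) were likewise not called in U251P.

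In U251T, DUT, RRM1 and RRM2 fell with carmofur. Of the 9 members 6 passed the filter on low counts there (TYMS, TK1 and DPYD did not), and 3 were called, all lower, while 8.2% of the 7204 tested genes were called lower (591 genes, with 640 higher). Folds given with a fall or rise are edgeR's fitted values, which need not equal the ratio of the mean CPM. DUT, at a mean of 233 CPM ± 19.5 in vehicle and 84.5 CPM ± 13.4 with carmofur, fell 2.7-fold by the fit (SD, n = 3 each; log2 fold change -1.44, SE 0.17, 95% interval -1.79 to -1.08; adjusted p = 1.47e-05 by edgeR). RRM1, at 447 CPM ± 49.1 and 216 CPM ± 15.4, fell 2.09-fold by the fit (log2 fold change -1.06, SE 0.141, adjusted p = 4.22e-05 by edgeR). RRM2, at 45.6 CPM ± 2.91 and 24.6 CPM ± 8.42, fell 2-fold by the fit (log2 fold change -1.0, SE 0.28, adjusted p = 0.0184 by edgeR). Each was lower in 3 of 3 carmofur libraries than in any vehicle library, and 16.5% of tested genes had all carmofur libraries below all vehicle libraries.

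The RRM2 call, on 13 to 132 counts per library, was lost without U251T carmofur replicate 1 (log2 fold change -0.79, adjusted p = 0.124 by edgeR) and with DESeq2 (-0.99, adjusted p = 0.0819), within a range of 0.00144 to 0.124 over its 16 alternatives, whereas DUT and RRM1 were called under all 16. The 702 genes called when the shallowest U251T library of each group was left out, an alternative chosen after seeing the data, included these 3 members.

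The other members did not pass in U251T. UMPS had a log2 fold change of -0.51 (95% interval -1.05 to 0.03; adjusted p = 0.195 by edgeR), UCK2 -0.45 (-1.21 to 0.31) and UPP1 0.37 (-0.52 to 1.26), the last turning to -0.28 without U251T carmofur replicate 2. For TYMS, with 19 counts in vehicle and 11 with carmofur, the ratio of carmofur to vehicle CPM over the pooled counts was 1.12 (exact 95% counting interval 0.479 to 2.47). For TK1, with 7 and 2 counts, it was 0.55 (0.0558 to 2.89), and DPYD had 3 and 0 counts.

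**Figure D2:**
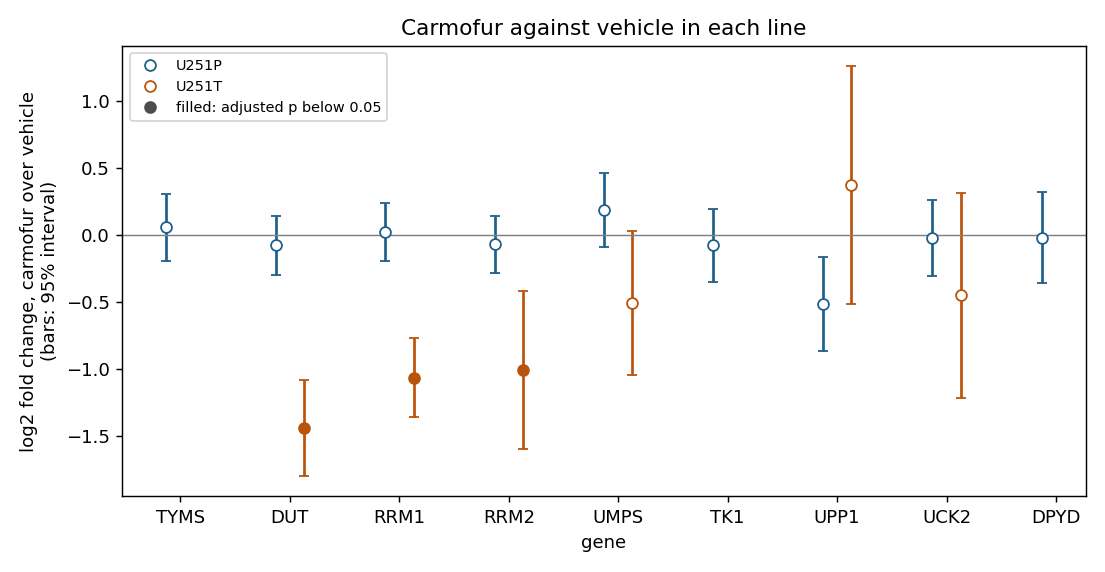
Log2 fold change, carmofur over vehicle, of each gene in U251P (blue) and U251T (orange), with 95% intervals from edgeR; filled points have an adjusted p below 0.05. DUT, RRM1 and RRM2 in U251T lie at -1.44, -1.06 and -1.0, and TYMS, TK1 and DPYD have no U251T point because they were below the filter.

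**Figure D3:**
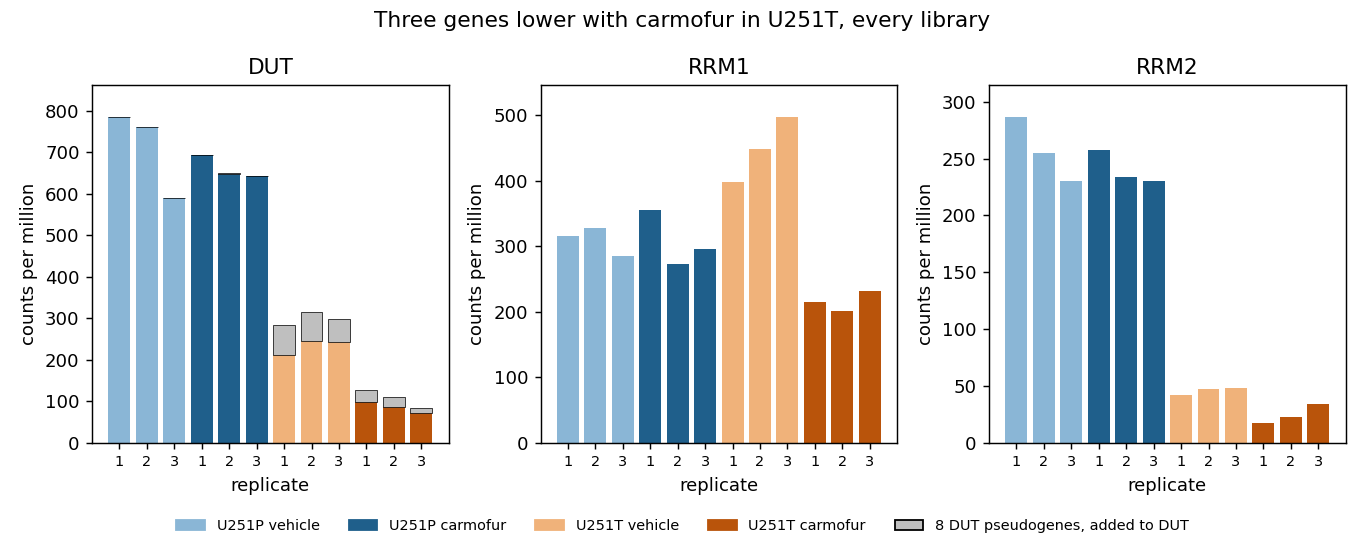
CPM of DUT, RRM1 and RRM2 in each library as bars from 0, with 8 DUT pseudogenes stacked in grey on DUT. In U251T every carmofur bar is below every vehicle bar, also with the pseudogenes added.

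The promoter windows of the 3 genes that fell together are shown for what their starts hold. RefSeq (GRCh38.p14) lists 17 windows for the 9 members, each running from 250 bases before the start to 50 after it. They were searched on both strands for E2F letters (TTTCGCGC, TTTCCCGC, TTTGGCGC or TTTGCCGC), the NF-Y letters CCAAT, the CHR letters TTTGAA and the SP1 letters GGGCGG. The following stretches carry the match nearest to the start for 1 of these motifs, in capitals, 5′ to 3′ on the forward strand.
DUT, E2F letters, chr15:48332159-48332188: gaaatttcggtTTTGGCGCgctccctgcgg
RRM1, NF-Y letters, chr11:4094645-4094674: gcatgtccatatCCAATggggcccatggga
RRM2, NF-Y letters, chr2:10122661-10122690: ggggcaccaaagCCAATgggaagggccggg

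GENCODE places the DUT stretch in an untranslated exon of another DUT transcript, the RRM1 stretch outside any exon and the RRM2 stretch in a coding exon of another RRM2 transcript. E2F letters were in 1 of 4 windows of DUT and in the only window of TYMS, and in no window of RRM1 or RRM2. Of all 35116 promoter windows 3.31% held E2F letters, 34.6% CCAAT, 15.2% TTTGAA and 45% GGGCGG, against 2, 5, 3 and 12 of the members' 17 windows. Counted by gene, 3.99%, 39.7%, 18.2% and 48.3% of 27305 genes had a window with these letters. Of the 9 members, 2 held E2F letters, 4 CCAAT (TK1, UCK2, RRM1 and RRM2), 3 TTTGAA (UMPS, DUT and RRM1) and 7 GGGCGG. A match is a description of these letters and not a binding site, and a window without one says nothing of the factor.

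Of the 25 genes on the proliferation list, 18 could be tested in U251T and 15 fell with carmofur, with a median log2 fold change of -1.60 against 0.01 over all tested genes. TOP2A, the topoisomerase of dividing cells, was at 2209, 1885 and 2074 CPM in vehicle and 637, 488 and 495 CPM with carmofur (log2 fold change -1.93, SE 0.133, adjusted p = 5.29e-08 by edgeR). The S and G2 cyclin CCNA2, at 236, 285 and 240.3 CPM in vehicle and 50.5, 41.7 and 41.7 CPM with carmofur, fell 5.69-fold by the fit, and E2F1, a transcription factor of the G1 to S step, fell 2.64-fold. The mitotic genes CCNB2 (6.82-fold), CCNB1 (3.88-fold), PLK1 (5.85-fold), BUB1 (3.75-fold) and CDK1 (5-fold) were also lower in each carmofur library than in any vehicle library. In bulk RNA, fewer dividing cells and less of these transcripts per cell cannot be told apart.

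Of 14 p53 response genes, 8 could be tested in U251T and 7 rose, with a median log2 fold change of 1.49. CDKN1A, the cell cycle inhibitor p21, was at 49.2, 30.5 and 24.7 CPM in vehicle and 155, 135 and 203 CPM with carmofur (4.46-fold higher, adjusted p = 4.95e-06 by edgeR). ZMAT3, an RNA-binding p53 target, was at 74.2 CPM ± 20.2 and 198 CPM ± 8.81 (SD, n = 3) and rose 2.76-fold by the fit. RRM2B, the p53-dependent subunit that can stand in for RRM2, was the 1 tested gene of the list not called: it had 11, 8 and 9 counts in vehicle and 26, 16 and 7 with carmofur (log2 fold change 1.51, adjusted p = 0.0503). RRM2 and RRM2B thus had estimates of opposite sign, from 13 to 132 counts per U251T library for RRM2 and 7 to 26 for RRM2B.

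In each of the other lists at most 3 tested genes were called in U251T. In pyrimidine synthesis 1 of 4 tested genes fell, DTYMK, the kinase that acts on the product of TYMS (45.8 to 23.1 CPM, adjusted p = 0.0162 by edgeR). In the folate cycle 7 were tested: SHMT1 (104 to 32.1 CPM) and MTHFD1 (145 to 84.6 CPM) fell and ALDH1L2 (120.4 to 201 CPM) rose. In uracil repair 3 of 9 fell: XRCC1 (12.5 to 1.68 CPM, on 4, 1 and 0 counts with carmofur), LIG1 (25.1 to 7.68 CPM) and PARP1 (183 to 125 CPM). Among transporters 1 of 3 rose, ABCC5 (42.2 to 71 CPM), an exporter of nucleotide analogues, and among RNA enzymes 1 of 4 fell, DKC1 (67.1 to 42.1 CPM). DTYMK and these 8 genes fall outside the rule for named genes and were chosen after their values were seen.

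No other gene of salvage and catabolism was called (4 tested: DCTD 104 and 100.1 CPM, and UCKL1 25.9 and 40.4 CPM, among them), and none of the reductase partners (3 tested: TXNRD1 137 and 120 CPM, and TXN 58.3 and 45.5 CPM, among them). Among the genes that every cell uses, TUBA1B fell (732 to 372 CPM). The medians of these lists were 0.27 in synthesis, 0.19 in salvage, -0.25 in reductase partners, -0.46 in the folate cycle, -0.05 in uracil repair, 0.81 in transport, -0.37 in RNA enzymes and -0.07 in the genes every cell uses.

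**Figure D4:**
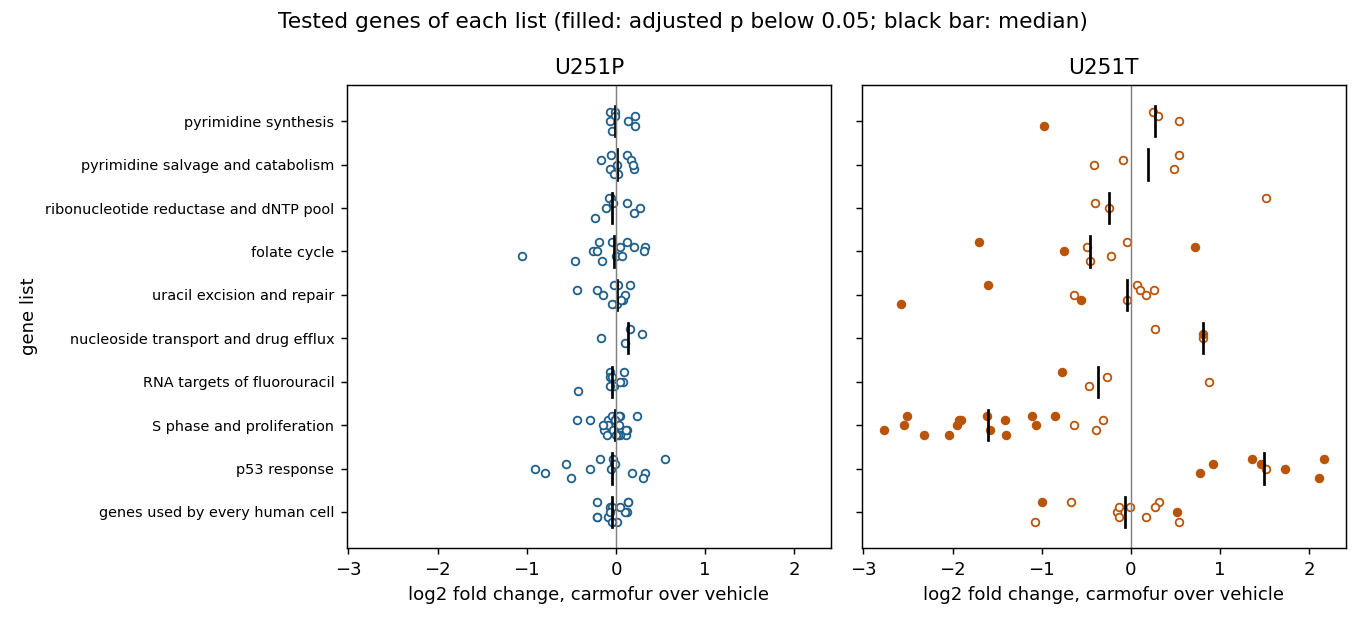
Log2 fold change, carmofur over vehicle, of each tested gene of the 10 lists (the 9 members left out) in U251P and U251T; filled points have an adjusted p below 0.05 and black bars are medians. In U251P no point is filled, and in U251T all 18 tested proliferation genes lie below 0, 15 of them filled, and all 8 tested p53 response genes above it, 7 of them filled.

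Whether carmofur acted differently in the lines was tested by the interaction of line and treatment over all 12 libraries. For 3 of the 9 members the change was more negative in U251T, where 2.49% of 13070 tested genes were called lower (325 genes, with 235 higher; 297 lower and 333 higher with library totals alone). The difference in log2 fold change, fitted over the 12 libraries and so not the exact difference of the values within each line, was -1.42 for DUT (SE 0.245, adjusted p = 0.000199 by edgeR), -1.14 for RRM1 (SE 0.217, adjusted p = 0.000704) and -1.03 for RRM2 (SE 0.289, adjusted p = 0.0325). UMPS (-0.78, adjusted p = 0.168), UCK2 (-0.57, adjusted p = 0.518), UPP1 (0.8, adjusted p = 0.384) and TYMS (-0.03, adjusted p = 1.00) did not pass; TK1 and DPYD had too few counts in U251T for an estimate.

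Among the lists, 17 of 25 proliferation genes were called lower by this interaction test and 7 of 14 p53 response genes higher, RRM2B among them (1.61, adjusted p = 0.0346 by edgeR). Of the 25 and 14 genes, 5 and 4 had at most 3 counts in some group, and only 18 and 8 could be tested within U251T. The others passed the filter through U251P. Elsewhere DTYMK, DCTPP1, SHMT1, XRCC1, LIG1 and TUBA1B were lower and ALDH1L2 higher, named after their values were seen, and no transport or RNA enzyme gene passed. DCTPP1 had 1, 0 and 0 counts in U251T carmofur, too few for an estimate, so its call carries little weight. The pseudogene and MT-RNR2 shares given above differ between the lines' libraries, and their part in these differences was not tested.

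The RRM2 difference lost its call without any 1 of 7 libraries: U251P vehicle replicates 2 and 3 (-1.01 and -0.97), U251P carmofur replicates 1 and 2 (-1.0 and -1.03), U251T vehicle replicate 2 (-0.92) and U251T carmofur replicates 1 and 2 (-0.83 and -1.08), with adjusted p-values from 0.00286 to 0.218 over 21 alternatives. UMPS passed without U251T vehicle replicate 3 (-0.93, adjusted p = 0.05 by edgeR) and with the replicate block (adjusted p = 0.0271 by edgeR). The sources used here do not say whether the replicate numbers pair the libraries. The adjusted p-values of UMPS by edgeR or DESeq2 ran from 0.0271 to 0.511 over its 21 alternatives. DUT and RRM1 were called under all 21.

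The lines were then compared within each treatment, on the same 4 groups and so with libraries shared with the comparisons above. In vehicle all 9 members were called by edgeR, 7 lower in U251T and 2 higher, but 47.6% of 12047 tested genes were called lower and 39.3% higher, so a share of this size says little about these genes. The members are protein-coding. Over protein-coding genes alone, a setting chosen after seeing the data, 5566 of 10267 were called lower in vehicle and 3148 higher. In that setting 7 members were lower and 1 higher. With carmofur 5215 of 10076 protein-coding genes were called lower. With carmofur 8 members were called lower, against 49.1% of 11667 tested genes, and UMPS was not called (log2 difference -0.41, adjusted p = 0.0634 by edgeR). TYMS, TK1 and DPYD passed the filter on low counts in both treatments through their U251P libraries. In U251T they held 19, 7 and 3 counts in vehicle and 11, 2 and 0 with carmofur. Genes kept in this way can hardly be called higher in U251T, so their lower calls say little. List genes with few counts in U251T, counted below, share this limit. The median log2 difference of all genes was -0.33 in vehicle and -0.52 with carmofur, and it moved with the scaling and with the genes tested. In vehicle it was -0.45 with RLE factors, -0.12 with DESeq2, -0.87 over protein-coding genes alone, -1.54 without a filter and 0.01 over genes with at least 10 counts in every library. With carmofur it was -0.31 with library totals alone, 0.24 with DESeq2, -0.73 over protein-coding genes alone, -1.37 without a filter and -0.02 over genes with at least 10 counts in every library. For the interaction it was 0.30 with DESeq2 against -0.02 by edgeR.

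The largest differences were in TYMS, TK1 and DPYD. Over pooled counts in vehicle, TYMS was 66.7-fold higher in U251P (exact 95% counting interval 42.7 to 111), TK1 79.9-fold (38.7 to 199) and DPYD 52.7-fold (17.9 to 257). With carmofur TYMS was 63.2-fold higher (35.3 to 127) and TK1 139-fold (38.4 to 1148), and DPYD, at 0 in U251T, was at least 26.1-fold higher in U251P, against a floor of 3 counts over the group. These ratios hang on single libraries: without U251T vehicle replicate 2, which held 6 of the 7 TK1 counts, TK1 was 223-fold higher (40 to 8811, on 1 count) and TYMS 42.1-fold (24.1 to 81.6). Without U251T carmofur replicate 1 or 2 the bound for DPYD was 15.7-fold or 14.5-fold.

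RRM2 was 5.75-fold lower in U251T in vehicle (log2 difference -2.52, SE 0.161, adjusted p = 1.19e-14 by edgeR) and 12.2-fold lower with carmofur (-3.61, SE 0.209, adjusted p = 5.62e-26). DUT was 3.12-fold lower in vehicle (-1.64, SE 0.146) and 8.75-fold lower with carmofur (-3.13, SE 0.166), UPP1 5.51-fold and 3.28-fold lower, and UCK2 1.63-fold and 2.51-fold lower. Over genes with at least 10 counts in every library these differences were larger, at -2.28 for DUT, -3.16 for RRM2 and -1.34 for UCK2 in vehicle and -3.85, -4.33 and -2.05 with carmofur. Without U251T carmofur replicate 2 the UPP1 difference with carmofur was -2.46 against -1.72.

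RRM1 and UMPS were the 2 members that were higher in U251T in vehicle, by 0.49 (SE 0.136, adjusted p = 0.00155 by edgeR) and 0.42 (SE 0.18, adjusted p = 0.0312) on the log2 scale. Both turned to the other sign (-0.15 and -0.21) when only genes with at least 10 counts in every library were used. RRM1 was not called without U251P vehicle replicate 1 (0.42) or 3 (0.37) or U251T vehicle replicate 2 (0.32), or without a filter (0.12). UMPS was called under only 2 of 15 alternatives and not, for example, without U251P vehicle replicate 1, 2 or 3 (0.38, 0.39 and 0.32), U251T vehicle replicate 1 or 2 (0.46 and 0.1), or with RLE factors (0.30). With carmofur RRM1 was 1.66-fold lower in U251T (-0.73, SE 0.148), and at -1.45 over genes with at least 10 counts in every library. UMPS was called lower with carmofur when U251P carmofur replicate 2 or 3 (-0.51 and -0.56) or U251T carmofur replicate 1 (-0.80) was left out, and under 4 other settings.

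The other genes of the pathway mostly ran lower in U251T too. In pyrimidine synthesis 8 of 8 tested genes were called lower in vehicle and 7 of 8 with carmofur; CMPK1, NME1 and DTYMK averaged 131, 163 and 114 CPM in U251P vehicle and 58.2, 19.9 and 45.8 CPM in U251T vehicle, and 124, 159 and 106 CPM and 69.9, 30.3 and 23.1 CPM with carmofur. In salvage and catabolism 7 of 10 were lower and 2 higher in vehicle, and 5 lower and 2 higher with carmofur. DCTD, which makes dUMP from dCMP, was higher in U251T (104 against 15.6 CPM in vehicle, 100.1 against 14.4 CPM with carmofur), while NT5C3A (12 against 70.7 CPM, 8.88 against 78.7 CPM) was lower; NT5C2 (26.4 against 43.6 CPM, 37.5 against 40.6 CPM) was called lower in vehicle and not with carmofur.

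Among reductase partners all 8 were lower in both treatments: in vehicle TXNRD1 was at 137 CPM in U251T and 582 CPM in U251P, TXN at 58.3 and 304 CPM and ITPA at 8 and 75.6 CPM, and with carmofur they were at 120 and 486, 45.5 and 342, and 4.48 and 69.5 CPM. In the folate cycle 8 of 13 were lower and 4 higher in vehicle, and 8 of 12 lower and 2 higher with carmofur. MTHFD2 was at 2.74 CPM in U251T and 312 CPM in U251P in vehicle, and at 4.51 and 222 CPM with carmofur; MTHFD1L was higher in U251T (214 against 69.9 CPM, 182 against 59.7 CPM), and SHMT2 was called higher in vehicle (223 against 147 CPM) and not with carmofur (163 against 121 CPM).

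In uracil repair 7 of 11 were lower and 1 higher in vehicle, and 9 lower and 1 higher with carmofur. POLB, the repair polymerase, was the higher gene (172 against 28.9 CPM, 165.5 against 31.6 CPM). APEX1 was lower in both treatments (14.6 against 175 CPM, 18.8 against 172 CPM), and PARP1 was called lower with carmofur (125 against 216 CPM) and not in vehicle (183 against 223 CPM).

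Among 5 tested transporters 3 were higher and 2 lower in both treatments: ABCC4 (73.5 against 26.3 CPM, 84.8 against 22.8 CPM) and ABCC5 (42.2 against 19.1 CPM, 71 against 20.1 CPM) were higher in U251T, and ABCC3 had 1 count in U251T vehicle and 2 with carmofur against 66 and 79.5 CPM in U251P. Among 9 RNA enzymes 7 were lower in both treatments: DKC1 was at 67.1 against 569 CPM in vehicle and 42.1 against 532 CPM with carmofur, NOP10 had no count in U251T vehicle and 2.39 CPM with carmofur against 219 and 229 CPM, GAR1 was at 23 against 67.5 CPM in vehicle, and EXOSC10 at 8.01 against 75.7 CPM with carmofur; PUS10, chosen after its value was seen, was higher with carmofur.

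Of 25 proliferation genes 12 were lower and 4 higher in vehicle, and 21 lower and 1 higher with carmofur. TOP2A did not differ beyond the spread in vehicle (2056 against 2053 CPM) and was lower with carmofur (540.1 against 1893 CPM), CCNB1 was lower in both (213 against 307 CPM, 53.8 against 292 CPM), and MKI67 was much lower in both (60.4 against 1751 CPM, 20.1 against 1771 CPM). Of the p53 response genes 6 of 13 were higher and 5 lower in vehicle, and 7 of 14 higher and 5 lower with carmofur. MDM2 was higher in both (665 against 73.3 CPM, 1248 against 70.6 CPM), SESN2 was not called in vehicle (73.4 against 80.3 CPM) and higher with carmofur (188 against 42.8 CPM), ZMAT3 was higher with carmofur (198 against 26.8 CPM), and GDF15 had 1 count in U251T vehicle against 104 CPM.

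Of the 14 genes that every cell uses, 10 were lower in each treatment, with 2 higher in vehicle and 1 with carmofur. GAPDH and B2M, given for vehicle above, were at 220.3 against 3149 CPM and 8.24 against 1792 CPM with carmofur, and TUBA1B was at 732 against 1804 CPM in vehicle and 372 against 1822 CPM with carmofur. The lower levels of DUT, RRM2, UPP1, UCK2, TYMS, TK1 and DPYD in U251T thus stand beside lower levels of most genes on this list.

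The genes whose log2 CPM, centred within each line, ran most like TYMS over the 12 libraries were REXO2 (Pearson's r = 0.944), ERO1A (0.941), COMMD6 (0.931), HEXIM1 (0.929) and RBM3 (0.928), out of 8553 genes with a mean of at least 10 CPM. Over the 6 U251P libraries alone their r with TYMS was 0.755, 0.757, 0.533, 0.778 and 0.940. The TYMS values in U251T rest on 3 to 9 counts, so this order depends partly on counting error. Among the members, r with TYMS over the 6 U251P libraries was 0.868 for UCK2, 0.857 for UMPS, 0.805 for TK1, 0.798 for RRM1, 0.774 for DUT, 0.683 for RRM2, 0.08 for UPP1 and -0.38 for DPYD. Over the 12 libraries it was -0.05, -0.15, -0.60, 0.02, -0.14, 0.12, -0.52 and -0.18 in the same order; all points share their library's depth and composition.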

How the data were processed

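The authors made 12 QuantSeq 3′ libraries, sequenced single-end reads of 75 bases and mapped them with the BlueBee pipeline; the submitters' notes name the build hg38. The deposited table holds whole-number counts per Ensembl identifier, not normalized. The counter, strand setting, annotation release and treatment of PCR copies are not given in the sources used here.

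Symbols were found for 56104 of 60107 identifiers (99.8% of counts) and GENCODE 29 positions for 56531. Counts were tested with edgeR 4.0.16 in R 4.3.3 (quasi-likelihood, TMM, filterByExpr, Benjamini-Hochberg over all genes tested, called at 0.05); DESeq2 1.42.0, other scalings and filters, a replicate block and left-out libraries were alternatives. Leaving out the shallowest U251T libraries and keeping protein-coding genes alone were chosen after seeing the data. The steps were tested on simulated counts. Tables and plots used Python 3.11.15, pandas 2.3.3, scipy 1.17.1 and matplotlib 3.10.9. Between replicates the chi-square per degree of freedom was 1.65 to 10.6 over 12 pairs, more than sampling noise gives.

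The members, lists and named genes were chosen with earlier results of these data known. Named genes were the 9 members; list genes called in a carmofur comparison (up to 10), or the 2 most abundant of a list with none; the 3 most abundant of each list between lines; copies and overlapping genes with at least 10 counts; and the 5 genes most like TYMS. Fitted fold changes were not used where a group had at most 3 counts.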

Additional observations from a re-analysis of the deposited data

Results flagged for a closer look

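The carmofur effect differed between the lines for DUT, RRM1 and RRM2 by the interaction test of edgeR. Fitted over all 12 libraries, the log2 fold change in U251T minus that in U251P was -1.42 for DUT, -1.14 for RRM1 and -1.03 for RRM2. Fitted in each line on its own, which need not subtract to the same values, the log2 fold changes in U251T and U251P were -1.44 and -0.08 for DUT, -1.06 and 0.02 for RRM1, and -1.0 and -0.07 for RRM2. The RRM2 difference lost its call without any 1 of 7 libraries, 4 of them U251P libraries; the cause was not tested. Pseudogenes, MT-RNR2 and the genes every human cell uses differ between the lines' libraries in both treatments, and their part in these differences was not tested.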

How the results depend on the processing

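In U251P 0 members were called under any of 15 alternatives; genes called were 0 except 19 without a filter and 1 with the replicate block, and 0 to 1 without each library. Signs turned for RRM1 with library totals alone (-0.0028) and, without each library, within these ranges: TYMS -0.0413 to 0.1417, TK1 -0.2035 to 0.0162, DPYD -0.1368 to 0.1339, UCK2 -0.0889 to 0.0708, RRM1 -0.0677 to 0.0876 and RRM2 -0.1243 to 0.0073. In U251T, 1231 genes became 2078 with the replicate block and 702 without the shallowest library of each group (fewer samples; chosen after seeing the data); UPP1 ranged from -0.2796 to 0.6882 without each library. The interaction called 560 genes, 1156 with the replicate block and 367 to 721 without each library; TYMS turned to 0.0666 with DESeq2, 0.0652 with RLE factors, 0.0539 with upper-quartile factors, 0.1043 with library totals alone and 0.0015 without a filter, and ranged from -0.5667 to 0.3985 without each library. With at least 10 counts in every library (fewer genes tested), the lines differed in 3737 genes and 3 members in vehicle, where UMPS (-0.212) and RRM1 (-0.1495) turned, and in 3348 genes and 5 members with carmofur. Causes other than fewer genes or samples were not tested. Vehicle and carmofur libraries with the same replicate number correlated at 0.214, -0.033 and 0.269 in U251P and 0.085, 0.342 and 0.082 in U251T. Those with different numbers correlated at -0.285 to 0.088 in U251P and -0.191 to 0.107 in U251T. These ranges overlap, and the sources used here name no pairing, so whether the numbers pair the libraries is not settled. Of the other member results, 122, 92, 127, 99 and 96 kept direction and call in U251P, U251T, the interaction and the lines in vehicle and carmofur; 2, 7 and 16 lost a call in U251T, the interaction and the lines in vehicle, and 2 and 7 gained a call in the interaction and the lines in carmofur, UMPS with the replicate block in the interaction among them (-0.7909, adjusted p = 0.0271 by edgeR). DPYD and TK1 have no alternative fold change where a group had at most 3 counts. In U251T, TYMS, TK1 and DPYD had at most 9 counts per library.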
